A study of Homo sapiens with 4 samples.

Results

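The KMT2 and SETD genes described here, with ASH1L, encode large proteins, most of them methyltransferases of lysine 4 or lysine 36 of histone H3. Of the m6A regions mapped in H1 human embryonic stem cells, 23 of 9900 lay over the 10 genes KMT2A, KMT2B, KMT2C, KMT2D, KMT2E, SETD1A, SETD1B, SETD2, SETD5 and ASH1L. A region was counted for a gene when its annotated transcript or nearest start site named the gene, or when it overlapped the gene body on hg38. By this rule each of the 10 genes had between 1 and 4 regions, and all 23 lay wholly inside the gene body.

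The study used wild-type cells of H1, a human embryonic stem cell line in wide use, with no added allele or treatment beyond the antibody step named in the labels. There were 2 libraries of RNA recovered with an antibody to N6-methyladenosine (m6A, a methylated adenosine in RNA) and 2 libraries of input RNA, all from total RNA. The deposited result was 1 set of intersected peaks without a height, a score, a strand or a value per library. There is therefore no replicate error to set beside any difference, depth is unknown, and absence of a region does not show absence of m6A. RNA levels were not in these files, so the labelled cell type could not be checked against the levels of its markers. Exonic regions were found in 4 of 10 markers of primed stem cells (SALL4, L1TD1, SOX2 and OTX2, but not POU5F1, NANOG, LIN28A, LIN28B, DNMT3B or ZIC2) and in 1 of 8 fibroblast markers, COL5A1, beside 12.8% of all protein-coding genes.

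As background, m6A is written on nascent RNA by the METTL3 and METTL14 complex and is known to concentrate near stop codons and within long internal exons. The enzymes described here act on chromatin. KMT2A and KMT2B, the relatives of fly Trithorax, work with menin at promoters. KMT2C and KMT2D place lysine 4 monomethylation at enhancers together with KDM6A, and SETD1A and SETD1B place much of the lysine 4 trimethylation at active promoters. These H3 lysine 4 enzymes share the core subunits WDR5, RBBP5, ASH2L and DPY30 in complexes named COMPASS. SETD2 trimethylates H3 lysine 36 over transcribed genes, a mark that METTL14 has been reported to bind, and ASH1L dimethylates the same residue. KMT2E binds methylated lysine 4 and has no clear methyltransferase activity, and that of SETD5 is disputed.

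All 10 genes held at least 1 region centred in a coding exon. A coding-exon region was found in 8.81% of all 20056 protein-coding genes. Over the 10 genes there were 13 such regions, 2 each in KMT2B, KMT2C and KMT2D and 1 each in the other 7 genes. The remaining 10 regions were centred in introns, and they fell in 5 of the 10 genes, KMT2A, KMT2C, KMT2E, SETD1B and SETD2. No region over these genes was centred in a 3' UTR, a 5' UTR, a promoter or a transcript end.

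**Figure D1:**
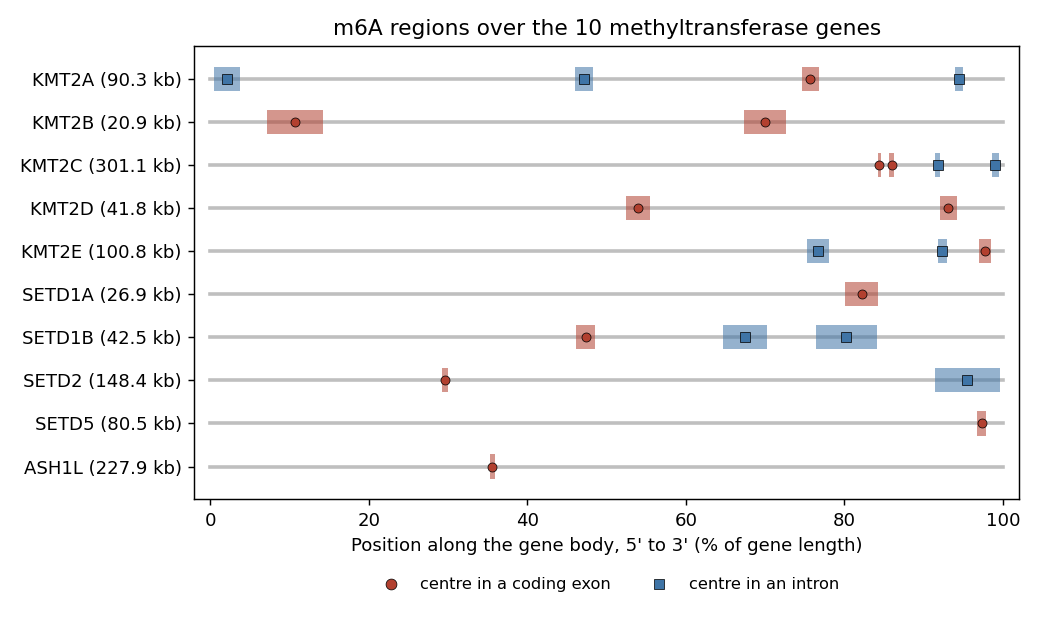
Each grey line is the body of 1 gene drawn 5' to 3' and scaled to 100% of its length, with the length in kb beside the name. Shaded boxes are the m6A regions to scale and markers are their centres (circles for coding exons, squares for introns). The coding-exon centres lie from 10.7% of the gene body in KMT2B to 97.7% in KMT2E.

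KMT2A, on the plus strand of chromosome 11 (positions 118436492 to 118526832), had 4 regions. The exonic one, chr11:118503931-118505849, was 1919 bp wide and was centred in exon 27 of 36, 68.4 kb from the 5' end of the gene. It was the widest of the 13 exonic regions. The other KMT2A regions were intronic and spread over the gene, with centres at 2.08%, 47.2% and 94.5% of its length. The first, of 2925 bp, lay in intron 1 at 1.88 kb from the start site, and the second, of 2067 bp, was centred on an L1MA2 repeat in intron 5. The last, of 928 bp, lay in intron 35 of 35 and also overlapped TTC36-AS1, so its reads cannot be given to 1 gene without strand.

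KMT2B, a short gene of 20.9 kb on the plus strand of chromosome 19 (35718003 to 35738878), had 2 regions and both were exonic. The first, chr19:35719499-35720964, was 1466 bp wide and centred in exon 3 of 37. The second, chr19:35732065-35733175, was 1111 bp wide and centred in exon 28 of 37. The KMT2B exon 28 and the KMT2A exon 27 are each followed by 9 further exons in their transcripts. These paralogs thus carried a region at the same rank counted from the 3' end, while no KMT2A region was annotated to an early exon like exon 3 of KMT2B. Whether the exons correspond in sequence was not analysed here.

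KMT2C is the longest of the genes, at 301.1 kb on the minus strand of chromosome 7 (152134925 to 152436003). Its 4 regions all lay in the last part of the gene, between 84.4% and 99.1% of its length. The exonic pair was centred in exon 36 (chr7:152181210-152182433, 1224 bp) and exon 38 (chr7:152176278-152178019, 1742 bp) of 59, with a gap of 3.19 kb between them. The intronic pair was centred in intron 43 (1624 bp) and in intron 58 of 58 (2589 bp, at an MIRb repeat). Parts of KMT2C are known to be copied elsewhere in the genome, and how multiply aligned reads were handled is not known here.

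KMT2D, on the minus strand of chromosome 12 (49018978 to 49060794), had 2 exonic regions and no intronic one. One, chr12:49037607-49038878, was 1272 bp wide and centred in exon 34 of 54, with 20 exons after it. Its exon rank was 63.0% of the transcript, between the 61.0% and 64.4% of the exonic pair of its paralog KMT2C. Counted from the 3' end it was not between them, since 21 and 23 exons follow the KMT2C pair. The other KMT2D region, chr12:49021415-49022278, was centred in exon 54 of 54, 2.87 kb from the 3' end of the gene. At 864 bp it was the narrowest of the 23 regions. KMT2C had no region centred in its last exon, although its intron 58 region was centred 2.86 kb from the 3' end.

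SETD1A, on the plus strand of chromosome 16 (30957754 to 30984664), had a single region. It lay at chr16:30979320-30980425, was 1106 bp wide and was centred in exon 14 of 19. SETD1B, on the plus strand of chromosome 12 (121790155 to 121832656), had an exonic region of 1049 bp at chr12:121809761-121810809, centred in exon 5 of 16. Unlike the KMT2A and KMT2B pair, these paralogs differed in the rank of that exon, with 5 exons after it in SETD1A and 11 in SETD1B. SETD1B also had 2 intronic regions of 2352 and 3269 bp, centred on an AluY and an MIR repeat in introns 9 and 11 of 15. Together its 3 regions covered 15.7% of the gene body, the largest share among the 10 genes. The deposited distance of its exonic region from the SETD1B start site was 5561 bp, against 20.1 kb from the 5' end of the body used here. The place, share and density of SETD1B regions therefore depend on which start is taken.

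KMT2E and SETD5 had their exonic regions in the last exon. In KMT2E, on the plus strand of chromosome 7 (105014205 to 105115019), chr7:105111951-105113501 was 1551 bp wide and centred in exon 26 of 26, 2.29 kb from the 3' end. Its intronic regions, of 2764 bp in intron 15 and 1189 bp in intron 21 of 26, also lay toward the 3' end, at 76.7% and 92.4% of the gene. In SETD5, on the plus strand of chromosome 3 (9397615 to 9478154), the only region was chr3:9475557-9476480. It was 924 bp wide and centred in exon 25 of 25, 2.14 kb from the 3' end.

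SETD2 and ASH1L, the lysine 36 enzymes among the 10 genes, each had 1 exonic region, in exon 2 and exon 3. KMT2B, a lysine 4 enzyme, also had 1 in exon 3, and NSD1, another lysine 36 enzyme, had 1 in its last exon. SETD2, on the minus strand of chromosome 3 (47016436 to 47164840), had a region of 1024 bp at chr3:47120350-47121373, centred in exon 2 of 20 at 29.6% of the gene body. ASH1L, on the minus strand of chromosome 1 (155335268 to 155563202), had a region of 1207 bp at chr1:155481471-155482677, centred in exon 3 of 28 at 35.6% of the gene body. It was the only region over ASH1L, a gene of 227.9 kb, and covered 0.530% of it, the smallest share among the 10 genes. SETD2 had a further region of 12191 bp at its 3' end, chr3:47016972-47029162, centred in intron 19 of 21. It was counted as intronic by its centre and may also cover exons, whose positions were not analysed here. That region was the widest over these genes and also overlapped the pseudogene MRPL57P3.

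**Figure D2:**
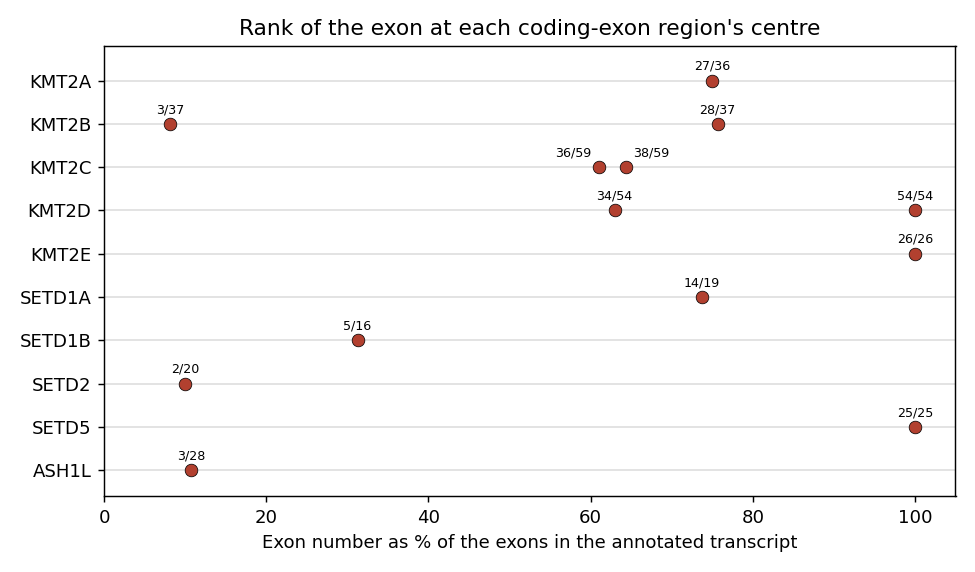
Each point is 1 of the 13 coding-exon regions, placed by the number of the exon at its centre as a percentage of the exons in the annotated transcript, with exon number and exon count printed above it. KMT2A (27 of 36) and KMT2B (28 of 37) fall at 75% and 75.7%, and only KMT2D, KMT2E and SETD5 have a point at the last exon.

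Internal exons held 10 of the 13 coding-exon regions (76.9%, 95% exact binomial interval 46.2 to 95.0%, counting error only) and last exons 3 (23.1%), with none in a first exon. Over the rest of the series, 637 of 1748 coding-exon regions in multi-exon transcripts were internal (36.4%, 34.2 to 38.7%) and 57.5% were in the last exon. The methyltransferase transcripts have many exons, 16 to 59 with a median of 36 over the 13 regions, against a median of 6 for the other regions. Among other genes with transcripts of 16 or more exons, internal exons held 239 of 344 regions (69.5%, 64.3 to 74.3%) and last exons 26.2%. That set has a median of 23 exons, still fewer than the 36 over the KMT2 and SETD regions, and its split is much nearer to theirs than that of all other genes. No test was run, since the genes were chosen with results of these data known and regions of 1 gene are not independent.

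**Figure D3:**
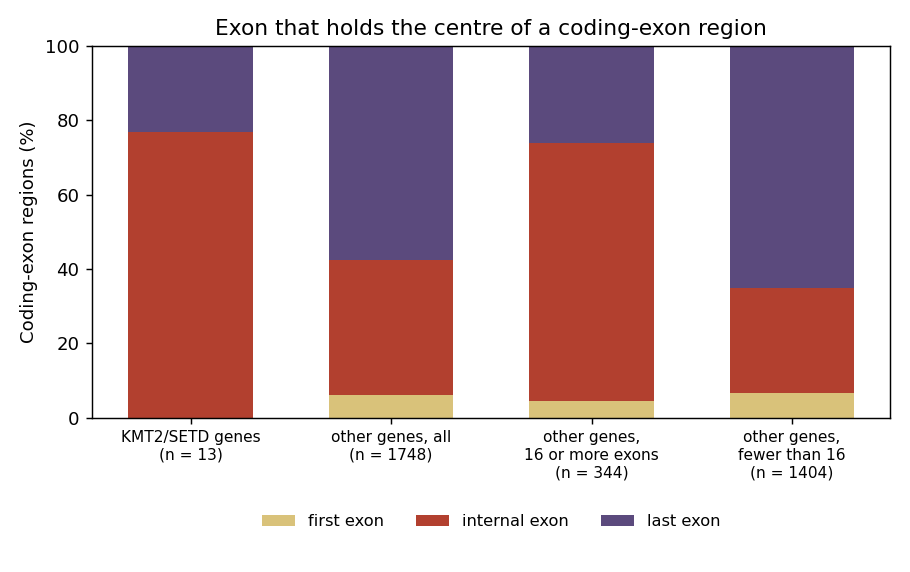
Bars give the percentage of coding-exon regions centred in a first, internal or last exon, for the KMT2 and SETD genes, all other genes, and other genes split at 16 exons per transcript, with the number of regions below. The bar of the KMT2 and SETD genes (76.9% internal) is nearer to that of other genes with 16 or more exons (69.5%) than to that of all other genes (36.4%).

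Coding exons took a larger part of the regions over these genes than elsewhere. The genes were chosen with earlier results of these data known, and the other regions were not matched for gene length or exon count. Of the 23 regions, 13 were in coding exons (56.5%) and 10 in introns (43.5%), against 24.3% and 58.6% of the 7787 other regions whose transcript belongs to a protein-coding gene. Among exonic regions alone, 13 of 13 were in coding exons, against 1900 of 3048 (62.3%) in the rest of the series. Those 3048 are not limited to protein-coding hosts and include 369 in non-coding exons. The 3' UTRs held 0 of 13 and 705 of 3048 (23.1%). The label follows the centre of a region, so a region centred in coding sequence may still reach into a UTR. Likewise, a region centred in an intron may reach into exons.

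The exonic regions were narrow. Their widths ran from 864 to 1919 bp with a median of 1207 bp, against a median of 1353 bp (quartiles 1029 and 1940 bp) for the 1900 other coding-exon regions. All 13 were up to 2 kb wide, as were 76.9% of the others. The 10 intronic regions were wider, from 928 to 12191 bp with a median of 2471 bp, and 7 exceeded 2 kb. Other intronic regions had a median of 2102 bp, and 47.9% of them were up to 2 kb wide, against 3 of these 10. Only the SETD2 region exceeded 5 kb, 1 of 10, against 26.7% of 4957 other intronic regions. Repeats lay at the centre of 4 of the 10 intronic regions, 3 of them SINEs and 1 a LINE, and at 54.7% of the other intronic centres. Of those 2713 other repeat centres, 1574 were LINEs and 730 were SINEs.

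**Figure D4:**
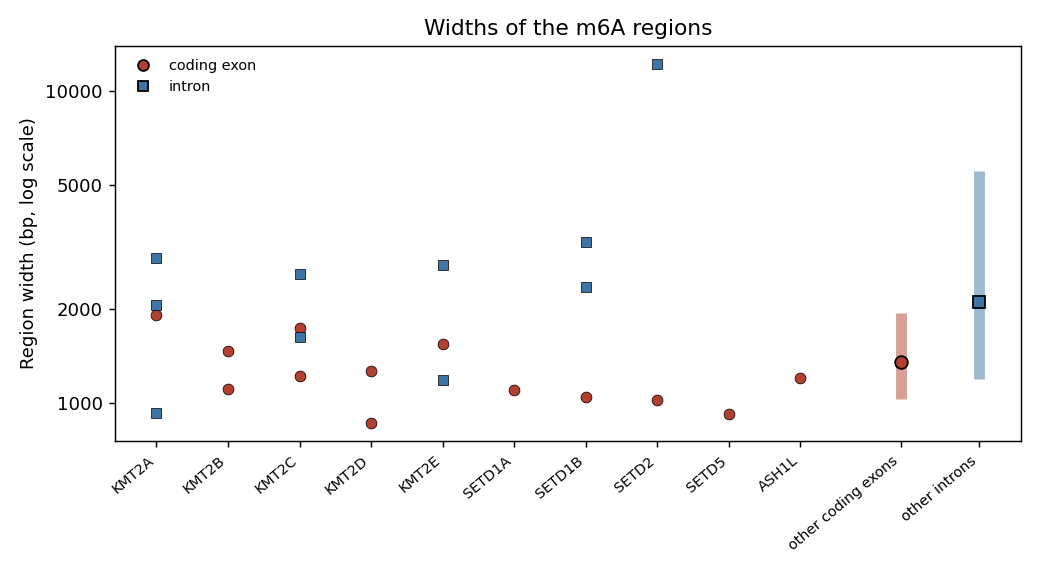
Points are the widths in bp, on a log scale, of each region over the 10 genes (circles for coding exons, squares for introns). At the right, markers and bars give the median and the quartiles of the other coding-exon and intronic regions of the series; all 13 coding-exon points lie between 864 and 1919 bp.

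Along the gene body, 9 of the 13 coding-exon centres lay beyond 50% of the length, with a median place of 75.7%. Other genes with a body within the same range of lengths had a median of 81.2% over 1046 coding-exon regions, of which 73.0% lay beyond 50%. Both the median and the share beyond 50% (69.2% over the methyltransferase genes) were slightly lower than in genes of like length. With 13 regions, not independent within a gene, differences this small were not tested. The quartiles overlapped, at 47.4 and 86.0% here against 47.1 and 93.3% in genes of like length. Of the intronic centres, 8 of 10 lay beyond 50% and their median place was 86.0%, against 56.8% for 3065 intronic regions of such genes, where 55.7% lay beyond 50%. The exceptions were the KMT2A regions in introns 1 and 5. Adjacent regions of the same gene were 2.62 to 91.2 kb apart.

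The bodies of the 10 genes together held 21.3 regions per Mb, of which 12.0 were exonic. Other protein-coding genes held 6.52 and 2.31 per Mb. Those were not matched for gene length, and the 10 genes were chosen with earlier results of these data known. Per gene, on the RefSeq bodies used here, KMT2B had the most, with 9.58 regions per 100 kb, followed by SETD1B with 7.06, while ASH1L had 0.439. The SETD1B value depends on the start site taken, and so does its order after KMT2B. The files give no exon lengths, so the density per base of mature RNA was not computed.

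An exonic region in 10 of 10 genes compares with 12.8% of all 20056 protein-coding genes (2569 genes). At least 2 exonic regions were found in 3 of 10, against 1.22% of all genes. At least 3 regions of any kind over the gene body were found in 4 of 10, KMT2A, KMT2C, KMT2E and SETD1B, against 3.16%. Any overlap of a region with the gene body was likewise found in 10 of 10, against 30.2%. Among the 10044 genes with a body of 20.9 to 301.1 kb, 15.5% held an exonic region and 1.86% held 2 or more. Of these genes 38.6% met any region and 4.68% met at least 3. In the longest of 5 equal classes of gene length, which contains 5 of the 10 genes, 18.7% held an exonic region (17.5 to 19.9%). The 2 classes next below, where 13.8% and 13.6% held an exonic region, contain 3 and 2. With regions up to 2 kb alone the count was 10 of 10, against 10.4% of all genes, and with regions of 1 kb or more it was 9 of 10, against 9.93%. With promoter and transcript-end labels added it was 10 of 10, against 14.4%. With hosts taken by the position of the centre it was 10 of 10, against 13.9%. Of these settings only the limit of 1 kb or more could lower the count. All 13 exonic regions are up to 2 kb wide and lie inside the gene body, and added labels can only add genes. RNA level and exon length were not held fixed, and their part in the count was not tested. The 10 genes were also chosen with earlier results of these data known.

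The symbols KMT2 and SETD also cover 8 other protein-coding genes, chosen for comparison after the values were seen: SETD3, SETD4, SETD6, SETD7, SETD9, SETDB1, SETDB2 and the readthrough gene SETDB2-PHF11. None of these 8 held an exonic region, and SETD3 and SETD9 had only a region elsewhere over the gene body. Counting both groups, 10 of 18 genes held one, among them ASH1L, which has neither symbol.

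Other enzymes and partners held exonic regions in a smaller part of cases. Of 27 other genes listed as lysine methyltransferases, not all with that activity shown, 8 did (29.6%). This list overlaps the other genes with KMT2 or SETD symbols, all of which it includes except SETD9 and SETDB2-PHF11. PRDM2, KMT5B and NSD1 held 2 regions each and EHMT1 held 1, while EHMT2, EZH1, EZH2 and KMT5A held none. NSD1, a lysine 36 dimethyltransferase, had regions in exon 5 of 23 and exon 23 of 23. Of the 11 exonic regions of this list, 7 were in coding exons and 3 in 3' UTRs.

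None of the 4 core COMPASS subunits, ASH2L, DPY30, RBBP5 and WDR5, held an exonic region, and WDR5 alone had a region over the gene body. Of 16 partners of 1 or a few of the enzymes, not all of them COMPASS subunits, 3 did (18.8%). HCFC1, a host cell factor found with SETD1A, had regions in exon 17 of 26 and in its 5' UTR. NCOA6, a coactivator of the KMT2C and KMT2D complexes, had regions in exons 7 and 11 of 15. BOD1L1, a SETD1A partner, had a region of 5431 bp in exon 10 of 26. BOD1, CXXC1, HCFC2 and IWS1 held none. All 4 coding-exon regions of these partners were in internal exons.

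The enzymes that remove methyl groups from lysine 4 or lysine 36 of H3 held exonic regions in 2 of 10 cases (20%). They were KDM5A, with a region in its 3' UTR, and KDM2B, with a region in exon 23 of 23. KDM1A, KDM1B, KDM2A and KDM4A held none. With lists this small, no difference between them and the 12.8% of all genes was tested.

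**Figure D5:**
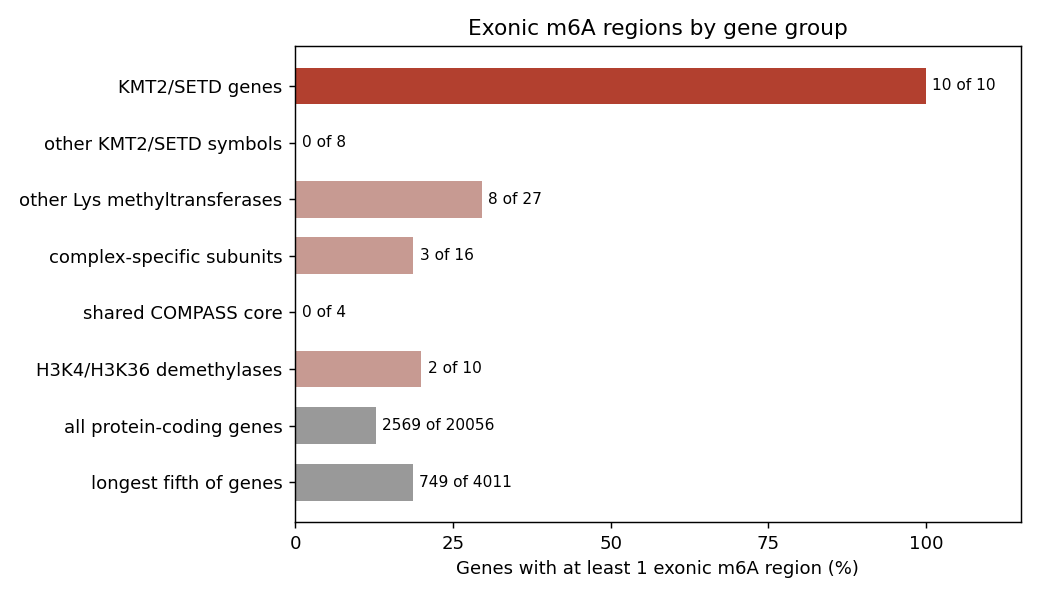
Bars give the percentage of genes with at least 1 exonic m6A region in each group, with the counts at their ends. The other genes with KMT2 or SETD symbols and the other lysine methyltransferases share genes. The KMT2 and SETD genes stand at 10 of 10, the other genes with KMT2 or SETD symbols and the shared COMPASS core at 0 of 8 and 0 of 4, and all protein-coding genes at 2569 of 20056.

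Over these genes, the gene named by the nearest start site was often not the gene that held the region. Of the 23 regions, 11 were named after the gene that held them in the deposited annotation, and so were 5 of the 13 exonic ones. The same share over all regions is not given here, so this cannot be called particular to these genes. By this naming, which takes regions of any feature, only 6 of the 10 genes had a region, against 26.2% of all protein-coding genes, and KMT2C, SETD1A, SETD5 and ASH1L had none. With exonic regions alone it was 5 of 10, since KMT2A was named only by intronic ones, and the matching share of all genes is not given here. The SETD5 region was assigned to LHFPL4, the SETD1A region to HSD3B7 and the ASH1L region to POU5F1P4. The 4 KMT2C regions had no gene name at all, and their distances to the nearest start site ran from 62745 to 106784 bp.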

How the data were processed

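m6A-seq libraries of wild-type H1 cells (2 pull-down, 2 input) were grouped by their titles; the labels do not name separate cultures. The authors' peaks came from MACS2 2.2.7.1, per the deposited file names and the submitters' processing notes, which also list HISAT2 2.2.1, HOMER, bedtools 2.30.0, Trim Galore 0.6.7, SAMtools 1.6 and the hg38 build; settings are not given in the sources used here, nor is what was intersected. The deposited positions are in base pairs, and a HOMER annotation lists the same 9900. Its score is 0 throughout and was not used.

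Feature and exon number were those of the region centre. Hosts were found by matching transcripts to RefSeq genes of GRCh38.p14 (8523 of 8585 regions matched; all 23 here), strands from RefSeq start sites or, for SETD1B, from the deposited distances; 92.8% of coding-exon and of intronic regions elsewhere had one. Exonic meant coding, UTR or non-coding exon. Python 3.11.15, pandas 2.3.3 and SciPy 1.17.1 were used, and the assignment was tested on simulated data. Genes and lists were chosen with earlier results of these data known. All 10 genes were named, and of each list up to 4 with and 4 without an exonic region. Sequences under the regions and protein lengths were not analysed here.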

Additional observations from a re-analysis of the deposited data

How the results depend on the processing

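The count of 10 genes with an exonic region was 9 with regions of 1 kb or more, where SETD5 dropped out. With hosts by the position of the centre the count was 10 and could not fall, since all 23 regions lie inside the gene body. It was also 10 with promoter and transcript-end labels or any overlap of the gene body, which can only add genes, and with regions up to 2 kb, which leaves out none of the 13. When the nearest start site gave the gene, 6 genes had a region of any feature and 5 an exonic one. The count of 13 exonic regions was 11 with regions of 1 kb or more. It could not move under its other 3 alternatives, since all 13 are up to 2 kb wide, no gap is under 1 kb and no region over these genes has a promoter or transcript-end label. The share of all protein-coding genes with an exonic region was 12.8%, and 10.4% with regions up to 2 kb. Regions of any feature gave 30.2% by overlap of the gene body and 26.2% by the nearest start site, so these shares differ from the first in feature as well as in naming. The share of other coding-exon regions in the last exon was 57.5%, and 26.2% in transcripts of 16 or more exons, a limit chosen after seeing the data as the fewest exons of a KMT2 or SETD transcript here. The last-exon count could not move with regions up to 2 kb, and the median width with all 23 regions (1466 bp) was within 1.5 times that of the 13 (1207 bp). A background by protein length was not run, since protein sequences were not used here. No paired analysis was possible because the deposited set has no value per library, and for the same reason no replicate could be left out. Depth and peak height limit every count here and are unknown.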
